A study of Mus musculus with 12 samples.

Results

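Potassium channel genes were followed in the ribosome-bound mRNAs of CA1 pyramidal neurons, the principal output cells of the hippocampal CA1 field, in wild-type and Fmr1-/y mice. The set holds every gene of the deposited counts whose symbol begins with Kcn and that had at least 15 reads summed over the 12 libraries, which is 91 of 97 such symbols and 91 of the 17823 genes tested. The choice used the sum over both genotypes and no difference between them. The 6 symbols under the minimum were Kcnk16 and Kcnmb3 with 0 reads, Kcnk15 with 3, Kcna7 with 6, Kcne1 with 7 and Kcnj1 with 11, and the members just above it were Kcnk18 with 19 reads and Kcna10 with 38. By role, 73 members encode pore-forming subunits, 14 encode auxiliary subunits and 4 carry a Kcn symbol without being a subunit. Of these 4, Kcnq1ot1, Kcnd3os and Kcnmb4os1 are noncoding RNAs and the other is Kcnrg.

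Each genotype was represented by 6 libraries, and each library was made from a pool of 4 to 6 male mice aged 2 to 6 months. Both groups carried the same alleles apart from Fmr1: a Wfs1-CreERT2 transgene, in which the Wfs1 promoter drives a tamoxifen-dependent Cre recombinase, and the RiboTag allele of Rpl22, which Cre switches to an HA-tagged ribosomal protein. All mice were given 100 mg/kg tamoxifen daily for 3 days, and hippocampi were collected after 1 week. Tagged ribosomes were immunoprecipitated from the whole hippocampus, so that the cells measured were set by the Wfs1 promoter and by the purity of the pull-down. The Fmr1-/y mice lack FMRP, an RNA-binding protein that regulates translation and whose loss causes fragile X syndrome.

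Between 39400980 and 65565479 reads per library were counted on genes. Fmr1 had 1971 to 2608 reads in the wild-type libraries, 0 in 5 of the Fmr1-/y libraries and 1 in the other. Genes listed as markers of CA1 pyramidal neurons were abundant: the 7 together made 8421 to 10456 CPM in wild-type libraries. CPM are reads scaled to a common library size after edgeR's TMM normalization. Camk2a made most of this sum (mean 6207 CPM), and neither it nor Slc17a7 is confined to CA1. Wfs1 had a mean of 1272 CPM in wild-type libraries. Markers of astrocytes (1041 to 1364 CPM over 5 genes in wild-type) and of the choroid plexus (6347 to 11818 CPM over 4 genes) were present as well, and no gene of the marker lists was at 0 reads. Library Fmr1-/y 1 stood apart by the smallest share of ribosomal Rn45s reads (0.448% of reads, against up to 3.88% elsewhere) and the largest share of reads of Ttr, which encodes the choroid plexus protein transthyretin (1.69%).

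Potassium channels set the resting potential of a neuron, repolarize its action potentials and limit repetitive firing. Their pore-forming subunits assemble around a common pore, as tetramers or, for the tandem-pore class, as dimers in which each subunit contributes a pair of pore loops. In CA1 pyramidal neurons, A-type Kv4 channels restrain dendritic excitation, M-type Kv7 channels oppose sustained firing, tandem-pore channels carry leak current, and G-protein-gated inward rectifiers answer inhibitory transmitters.

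The coding sequence of the pore itself shows what these genes share. The selectivity filter is encoded by 5 codons, for threonine or serine, any residue, glycine, an aromatic residue (tyrosine or phenylalanine) or leucine, and glycine. Read in frame from GENCODE transcripts, this signature was present in all 73 pore-forming members, in 0 of 14 auxiliary members and in 6.00% of the 16257 tested genes with a coding sequence. All 12 tandem-pore members held it at 2 positions, as did 2 other members, Kcna6 and Kcnh2. The filter codons, in capitals, are shown with 6 bases on either side, 5′ to 3′ on the coding strand, for 6 of the channels on which the results turn.
Kcnq3: ctggccACCATTGGTTATGGAgacaag
Kcnk2, the first pore: atcacaACCATAGGATTTGGAaacatc
Kcnk2, the second pore: ctgacgACCATTGGATTTGGAgactac
Kcnj6: gaaaccACCATCGGTTATGGCtaccgg
Kcna4: atgacaACTGTGGGCTATGGGgacatg
Kcnd2: atgacaACACTGGGGTATGGCgacatg
Kcnma1: atgtctACAGTGGGTTATGGGgacgtt

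The coordinates that follow, on GRCm38 (the build also called mm10), span the 27 bases shown, which are the filter codons and their flanks. The filter of Kcnq3 is encoded in exon 6 (chr15:66023725-66023751, minus strand). The first filter of Kcnk2 is split between exon 3 (chr1:189295594-189295606) and exon 4 (chr1:189258885-189258898), and its second filter lies in exon 5 (chr1:189256575-189256601), all on the minus strand. The filter of Kcnj6 lies in exon 2 (chr16:94832771-94832797, minus), that of Kcna4 in exon 2 (chr2:107296489-107296515, plus) and that of Kcnma1 in exon 8 (chr14:23528407-23528433, minus). In Kcnd2 it is split between exon 1 (chr6:21217400-21217413) and exon 2 (chr6:21714135-21714147) on the plus strand. The sequences are a description of the genes and were not measured in these libraries.

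The levels of the members spread widely, with a median of 14 CPM in wild-type over the 88 coding members against 16.7 CPM over all tested coding genes, in a pull-down that also held astrocyte and choroid plexus RNA. Of the 91 members, 13 reached at least 100 CPM in wild-type libraries, 37 lay between 10 and 100 CPM, 24 between 1 and 10 CPM and 17 under 1 CPM. When levels were divided by transcript length, which is needed to compare genes, the auxiliary subunits led. Kcnab2, the Kv beta-2 subunit that binds Kv1 channels, had 347 ± 27 CPM per kb (SD, n = 6 here and below) in wild-type and 316 ± 44.4 in Fmr1-/y libraries. Kcnip2, which encodes a calcium-binding partner of Kv4 channels, followed with 99.7 ± 9.61 and 90.2 ± 16.7 CPM per kb, and Kcnab1, the Kv beta-1 subunit, with 64.4 ± 7.12 and 57.4 ± 5.98 CPM per kb.

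Among pore-forming members the highest level per length was that of Kcna1, the axonal Kv1.1 subunit, at 52.7 ± 9.03 CPM per kb in wild-type and 47.9 ± 9.66 in Fmr1-/y libraries. Next came Kcnj9, the G-protein-gated GIRK3 subunit (38.4 ± 5.69 and 39.5 ± 5.85 CPM per kb), and Kcnd2, the dendritic A-type subunit Kv4.2 (34.6 ± 3.56 and 32.5 ± 3.88), whose wild-type levels lay within their spread of each other. Also among the 10 highest were Kcnip3 (31.2 ± 2.22 CPM per kb in wild-type), another Kv4 partner, Kcnj4 (28.5 ± 3.86), the Kir2.3 inward rectifier, and Kcnj10 (26.5 ± 2.18), the Kir4.1 inward rectifier of astrocytes. Of the 10 highest, Kcnj10 alone had an unadjusted p under 0.05 between genotypes in edgeR's test.

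**Figure D1:**
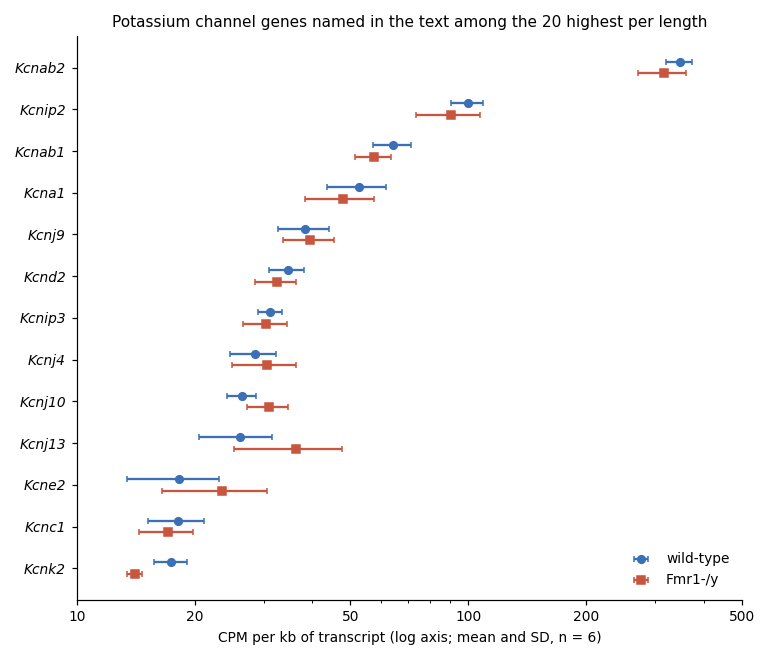
Level per length of the 13 potassium channel genes named in the text that are among the 20 highest in wild-type libraries, in CPM per kb of transcript on a log axis. Points are means and bars the SD over 6 libraries of each genotype. Kcnab2 stands at 347 CPM per kb in wild-type, Kcnip2 at 99.7, and the SD bars of the genotypes overlap for every gene shown except Kcnk2.

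The comparison of the genotypes asked whether the loss of FMRP altered the ribosome-bound mRNA of these channels. The quasi-likelihood test of edgeR, with p values adjusted by Benjamini-Hochberg over all 17823 genes, called 0 members at a threshold of 0.05, and 4 genes (0.0224%) in all. At an unadjusted p under 0.05, 12 of the 91 members (13.2%) were called, against 1418 genes (7.96%) overall. Of these 12, 9 members (9.89%) were lower in Fmr1-/y libraries, where 3.67% of all genes were, and 3 members (3.3%) were higher, where 4.29% of all genes were. DESeq2's Wald test, run on the same counts, called 2 members, Kcnq3 and Kcnk2, at an adjusted p under 0.05, and 0.471% of all genes.

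The members lower at this unadjusted level were Kcnq3, Kcnk2, Kcnj6, Kcns3, Kcnq5, Kcnh5, Kcna4, Kcnj11 and Kcnb2, and those higher were Kcnj10, Kcnj13 and Kcnj16. Over all members, 57 of 91 (62.6%) had a log2 fold change below 0, where 48.6% of all genes did, and the median log2 fold change was -0.09 against 0.00 over all genes. For the 74 members with at least 1 CPM in wild-type, 51 (68.9%) lay below 0, compared with 49.4% of the 13735 genes at that level. The 91 members together made 5119 ± 145 CPM in wild-type libraries and 4857 ± 252 CPM in Fmr1-/y libraries, with ranges of 4932 to 5284 and 4518 to 5159 that overlapped. Kcnab2 gave the largest part of this sum, with means of 1359 and 1241 CPM (unadjusted p 0.143 in edgeR's test).

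**Figure D2:**
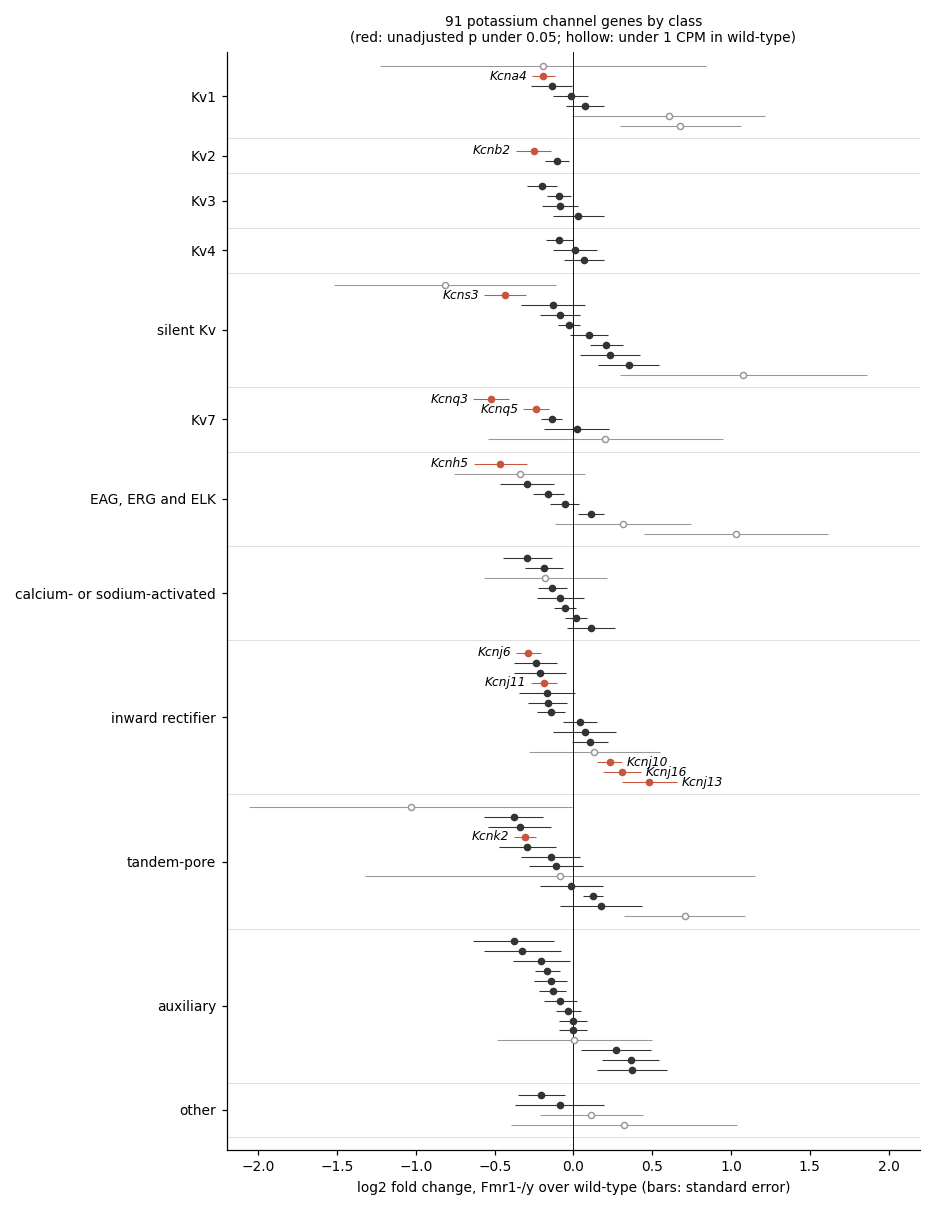
Log2 fold change of Fmr1-/y over wild-type for each of the 91 potassium channel genes, one row per gene, grouped by class, with bars for the standard error. Red points have an unadjusted p under 0.05 and hollow points lie under 1 CPM in wild-type. All 3 red points to the right of 0 are inward rectifiers, and 9 red points spread over 7 classes lie to the left.

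The M-type (Kv7) class held the member with the smallest p. Kcnq3 (Kv7.3, chr15:65986374-66286636) is a subunit of the channels that carry the M-current. Its level in wild-type libraries had a lowest value of 10.6, a median of 13.0 and a highest value of 16 CPM, and in Fmr1-/y libraries 7.90, 8.72 and 11.5 CPM. A single Fmr1-/y library, replicate 6, reached into the wild-type range, and the other 5 lay below every wild-type library.

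Kcnq3 was at 69.5% of its wild-type level (13.0 ± 1.78 against 9.07 ± 1.28 CPM), a log2 fold change of -0.52 (SE 0.11, 95% interval -0.76 to -0.29). Its unadjusted p of 0.000232 ranked it at place 20 of all genes, and its adjusted p was 0.181 in edgeR's test and 0.0050 in DESeq2. Kcnq5 (Kv7.5, chr1:21398399-21962650), which also forms M-type channels in the hippocampus, had 46.0, 51.3 and 55.8 CPM as lowest, median and highest values in wild-type libraries and 37.7, 42.3 and 50.2 CPM in Fmr1-/y libraries. The Kcnq5 groups overlapped, with the medians in the same order as for Kcnq3 (log2 fold change -0.24, SE 0.08, unadjusted p 0.0101, adjusted p 0.431 in edgeR).

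Kcnq1, best known from heart and epithelia, was scarce (0.203 CPM in wild-type against 0.232 CPM in Fmr1-/y libraries), with a log2 fold change of 0.20.

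In the tandem-pore class, Kcnk2 (TREK-1, chr1:189207930-189402782), a leak channel opened by membrane stretch and lipids, was the one member of all 91 whose genotypes did not overlap with the lower values in Fmr1-/y (1.10%, against 0.41% of all genes). No member was without overlap in the higher direction (0.213% of all genes). Wild-type libraries had 49.2, 58.1 and 62.9 CPM of Kcnk2 as lowest, median and highest values, and Fmr1-/y libraries 42.3, 47.0 and 47.9 CPM. The gap between the genotypes was narrow, with the lowest wild-type library just above the highest Fmr1-/y library, and it closed when counts were scaled by library size alone.

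Kcnk2 was at 80.7% of wild-type (57.5 ± 5.44 against 46.4 ± 2.02 CPM), a log2 fold change of -0.31 (SE 0.07, 95% interval -0.46 to -0.16) with an unadjusted p of 0.000337 and an adjusted p of 0.181 in edgeR's test and 0.0102 in DESeq2. Of the 12 tandem-pore members, 9 had a log2 fold change below 0 and 3 above it, where 48.6% of all genes lay below 0. Kcnk2 alone had an unadjusted p under 0.05, where 7.96% of all genes had. The class had a median log2 fold change of -0.13.

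Inward rectifiers were the only class with calls in both directions: 2 of 14 members were lower and 3 higher at an unadjusted p under 0.05. Of all genes, 3.67% were lower and 4.29% higher at that level. Kcnj6 encodes GIRK2, a G-protein-gated subunit through which GABA-B receptors hyperpolarize pyramidal neurons (chr16:94744980-94997696). Its wild-type libraries ran from 26.3 through a median of 30.7 to 33.8 CPM and its Fmr1-/y libraries from 22.1 through 25.4 to 26.6 CPM. Only the lowest wild-type library lay within the Fmr1-/y range.

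The mean of Kcnj6 in Fmr1-/y libraries came to 82.1% of that in wild-type (log2 fold change -0.29, SE 0.08, unadjusted p 0.00234, adjusted p 0.301 in edgeR's test). Kcnj11 (Kir6.2, chr7:46097123-46100952), the pore of the channel that ATP closes, had 43.8, 52.0 and 55.2 CPM in wild-type libraries and 38.9, 43.9 and 53.2 CPM in Fmr1-/y libraries as lowest, median and highest values. The ranges of Kcnj11 overlapped over most of their length (log2 fold change -0.19, SE 0.08, unadjusted p 0.0347, adjusted p 0.577 in edgeR), and the unadjusted call was lost in 8 of the 12 fits with a library left out.

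Among delayed rectifiers and their modifiers, Kcns3 (chr12:11090202-11151168) encodes Kv9.3, a subunit that is silent alone and modifies Kv2 channels. It had 8.35, 11.8 and 13.2 CPM as lowest, median and highest values in wild-type libraries and 6.44, 8.08 and 9.93 CPM in Fmr1-/y libraries. Kcns3 was at 74.0% of wild-type with overlapping groups (log2 fold change -0.43, SE 0.13, unadjusted p 0.00409, adjusted p 0.358 in edgeR's test). Kcnb2, the delayed rectifier Kv2.2 (chr1:15286925-15723751), had 8.73 ± 1.26 CPM in wild-type libraries and 7.33 ± 0.642 CPM in Fmr1-/y libraries (unadjusted p 0.0384, adjusted p 0.595 in edgeR), a call that was lost without scaling, with the replicate number as a block and in 7 of the 12 fits with a library left out. The silent class as a whole was divided, with 5 of 10 members below 0, where 48.6% of all genes were, and a median of 0.03. Among them Kcns1, which encodes Kv9.1, had lowest, median and highest values of 9.02, 12.8 and 14 CPM in wild-type libraries and 13.4, 13.7 and 16.7 CPM in Fmr1-/y libraries (log2 fold change 0.21, unadjusted p 0.0629).

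Kcna4 (Kv1.4, chr2:107290589-107326804), an A-type subunit of axons, had 55.0, 58.4 and 66.9 CPM in wild-type libraries and 44.3, 54.1 and 56.2 CPM in Fmr1-/y libraries as lowest, median and highest values. It was at 87.5% of wild-type, with overlapping groups (log2 fold change -0.19, SE 0.07, unadjusted p 0.0175, adjusted p 0.496 in edgeR). Kcnh5 (chr12:74897217-75177332), which encodes the ether-a-go-go channel Eag2, was scarce, at 2.69 ± 0.310 CPM in wild-type libraries and 1.95 ± 0.367 CPM in Fmr1-/y libraries (log2 fold change -0.46, SE 0.17, unadjusted p 0.0127, adjusted p 0.460). The remaining Kv1 and ether-a-go-go members had unadjusted p values above the threshold.

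**Figure D3:**
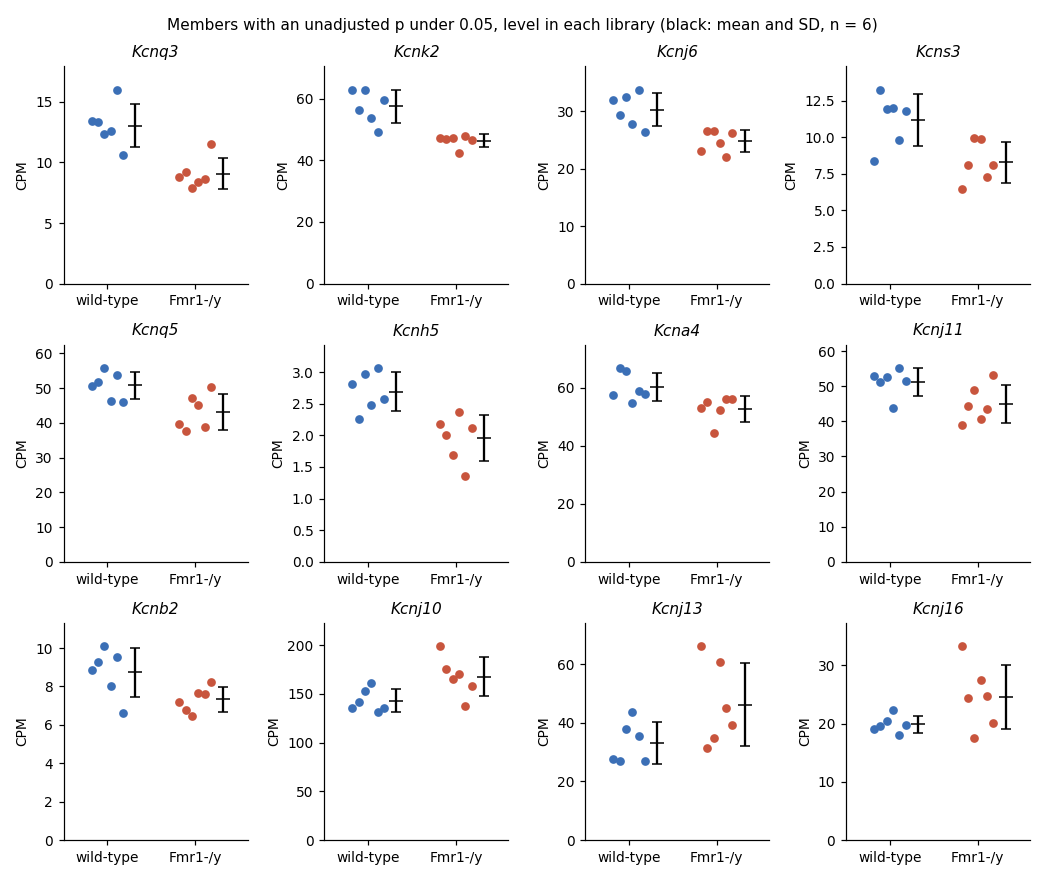
Level in CPM of the 12 potassium channel genes with an unadjusted p under 0.05, one panel per gene, each point a library, with the mean and SD of 6 wild-type and 6 Fmr1-/y libraries. Only Kcnk2 shows no overlap, the wild-type points lying between 49.2 and 62.9 CPM and the Fmr1-/y points between 42.3 and 47.9 CPM.

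The markers of CA1 pyramidal neurons were also lower in these libraries: 7 of 7 had a log2 fold change below 0, 2 of them at an unadjusted p under 0.05 (Wfs1, whose promoter drives Cre, at -0.27, and Mpped1 at -0.16). Their sum was 8421 to 10456 CPM in wild-type and 8146 to 9686 CPM in Fmr1-/y libraries. Camk2a made most of this sum (mean 6207 CPM in wild-type). The 7 ran from 82.9% (Wfs1) to 99.2% (Slc17a7) of their wild-type means, with Camk2a at 93.9%. Ratios to the sum thus follow Camk2a most, and a single other marker in its place would give other values. In such pull-downs, fewer cells of a type, less RNA per cell and a difference in the purity of the pull-down cannot be told apart. Per 1000 CPM of these markers in the same library, a ratio chosen after the values were seen, Kcnq3 was at 74.8% of its wild-type mean and Kcnk2 at 86.9%, and with this ratio the groups of Kcnk2 overlapped (4.89 to 6.54 against 4.80 to 5.64). Kcnj6 was then at 88.6%, Kcns3 at 79.5%, Kcnh5 at 78.7%, Kcnq5 at 91.7%, Kcnb2 at 90.7%, Kcnj11 at 94.6% and Kcna4 at 94.3%. The part of the CA1 markers in these differences was not tested.

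The 3 higher members are inward rectifiers of cells other than pyramidal neurons. Kcnj10 (Kir4.1, chr1:172341210-172374085), with which astrocytes clear potassium, had 132, 138 and 161 CPM as lowest, median and highest values in wild-type libraries and 138, 168 and 199 CPM in Fmr1-/y libraries. Kcnj16 (Kir5.1, chr11:110968033-111027968), its partner in astrocytes, had 18, 19.7 and 22.3 CPM in wild-type libraries and 17.6, 24.5 and 33.3 CPM in Fmr1-/y libraries. The upper ends of both Fmr1-/y groups were set by replicate 1, and both pairs of groups overlapped.

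Kcnj10 reached 117% of its wild-type mean (log2 fold change 0.23, SE 0.08, unadjusted p 0.0100, adjusted p 0.429 in edgeR's test) and Kcnj16 at 124% (0.31, SE 0.12, unadjusted p 0.0221, adjusted p 0.515). Without Fmr1-/y replicate 1 the unadjusted p of Kcnj16 was 0.0749. All 5 astrocyte markers (Aldh1l1, Aldoc, Aqp4, Gfap and Gja1) lay above 0 as well, 3 of them at an unadjusted p under 0.05, and none was at 0 reads. Their sum was 1041 to 1364 CPM in wild-type and 1198 to 1896 CPM in Fmr1-/y libraries. Aldoc, at 122% of wild-type, gave the largest part of it (mean 685 CPM in wild-type). Per 1000 CPM of astrocyte markers, Kcnj10 stood at 99.3% and Kcnj16 at 104% of the wild-type mean.

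Kcnj13 (Kir7.1, chr1:87384577-87394729), an inward rectifier of the choroid plexus epithelium, had 26.9, 31.6 and 43.8 CPM in wild-type libraries and 31.3, 42.1 and 66.1 CPM in Fmr1-/y libraries as lowest, median and highest values. It was at 140% of wild-type with overlapping groups (log2 fold change 0.48, SE 0.17, unadjusted p 0.0132, adjusted p 0.464 in edgeR). Kcne2, an auxiliary subunit of the same epithelium, had 30.9 ± 8.18 and 39.8 ± 11.8 CPM (log2 fold change 0.36, 95% interval -0.02 to 0.75, unadjusted p 0.0615). The 4 choroid plexus markers Ttr, Folr1, Kl and Clic6 all lay above 0, 2 of them at an unadjusted p under 0.05, none was at 0 reads, and their sum was 6347 to 11818 CPM in wild-type and 8267 to 17421 CPM in Fmr1-/y libraries. Ttr made most of this sum (mean 8323 CPM in wild-type). It was at 136% of wild-type, with Folr1 at 148%, Clic6 at 128% and Kl at 126%. Per 1000 CPM of these 4 markers, and so mostly of Ttr, Kcnj13 was at 101% and Kcne2 at 94.2% of the wild-type mean. The part of these cells in the higher values of the 4 genes was not tested.

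**Figure D4:**
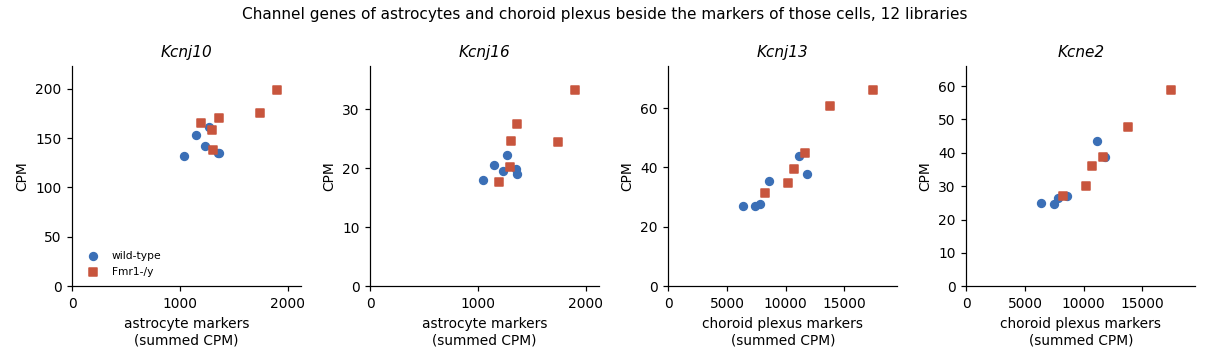
Level in CPM of potassium channel genes known from other cells (vertical axis) against the summed CPM of the marker genes of those cells (horizontal axis), one point per library and one colour per genotype. Kcnj13 and Kcne2 are set against 4 choroid plexus markers and Kcnj10 and Kcnj16 against 5 astrocyte markers, and Fmr1-/y replicate 1 lies at the highest marker sum.

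The other members known from cells outside the pyramidal layer showed no call. Kcnip1, a Kv4 partner of interneurons, had 9.62 CPM in wild-type libraries and 8.35 CPM in Fmr1-/y libraries (log2 fold change -0.20), while the summed level of 8 interneuron markers was 114 to 237 CPM and 123 to 177 CPM. Kcnj8, the Kir6.1 subunit of mural cells, was at 3.68 and 3.86 CPM (log2 fold change 0.07). All 7 endothelial and mural markers lay above 0, and 4 of them had an unadjusted p under 0.05 (Flt1, Kdr, Pecam1 and Vtn). The list was not split between endothelial and mural cells. Rgs5 and Pdgfrb had no call, with log2 fold changes of 0.13 each, nor had Cldn5 at 0.47. Vtn was at 0.38 (unadjusted p 0.0261 in edgeR's test). The microglial channels Kcnk13 (1.78 and 2.01 CPM) and Kcnn4 (0.829 and 0.734 CPM) were scarce, with log2 fold changes of 0.17 and -0.18. The 5 microglial markers held 0 calls, where 7.96% of all genes had one. Of the other lists, 4 of 5 oligodendrocyte markers and 4 of 4 dentate granule cell markers lay below 0 without a call, and 1 of 4 CA2 markers (Cacng5, lower) and 1 of 4 CA3 markers (Coch, higher) had an unadjusted p under 0.05.

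Kcnd2, Kcnc1, Kcnmb4 and Kcnt1, 4 members that published work has linked to FMRP by binding of the mRNA or of the channel protein, had 0 calls at an unadjusted p under 0.05. Of all genes, 7.96% had such a call, and with so few members 0 calls do not set them apart. They are not all such members, since the mRNA of Kcnq3, described with the Kv7 class, is also known to bind FMRP. Kcnq3 had the smallest p of all members, so the 0 calls depend on how the list was drawn. Kcnd2 had 178 ± 18.3 CPM in wild-type libraries and 167 ± 20 CPM in Fmr1-/y libraries, a log2 fold change of -0.09 with a 95% interval of -0.27 to 0.09 (adjusted p 0.867 in edgeR's test). Kcnc1, the fast Kv3.1 subunit, had 141 ± 22.7 and 133 ± 21.0 CPM (-0.09, interval -0.33 to 0.15), and Kcnmb4, the beta-4 subunit of BK channels, 20.6 ± 2.67 and 19.4 ± 2.67 CPM (-0.08, interval -0.31 to 0.14). Kcnt1, the sodium-activated channel Slack, had 23.8 ± 3.03 and 25.7 ± 7.34 CPM (0.11, interval -0.21 to 0.43). A difference of the size seen for Kcnk2 lay inside the interval of Kcnc1 on the lower side and of Kcnt1 on the higher side, and outside the interval of Kcnd2.

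Kcnma1, the BK channel pore that calcium and depolarization open together, had 39.7 ± 2.63 CPM in wild-type libraries and 40.1 ± 3.20 CPM in Fmr1-/y libraries. Its log2 fold change of 0.02 had a 95% interval of -0.13 to 0.16 (adjusted p 0.984 in edgeR's test), and a difference of the size seen for Kcnk2 lay outside it. The ratio of Kcnmb4 to Kcnma1 per length was 4.60 ± 0.626 in wild-type and 4.31 ± 0.721 in Fmr1-/y libraries, a difference smaller than the spread. Among the 8 calcium- or sodium-activated members 6 lay below 0, where 48.6% of all genes did, and 0 had an unadjusted p under 0.05, where 7.96% of all genes had.

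None of the 14 auxiliary members had an unadjusted p under 0.05 in edgeR's test, where 7.96% of all genes had. Of these members 10 lay below 0, where 48.6% of all genes did, with a class median of -0.06. Kcnab2, Kcnip2 and Kcnab1, the 3 most abundant members per length, had log2 fold changes of -0.13, -0.14 and -0.17. Of 26 partner genes of these channels (scaffolds, anchoring proteins, calmodulins, the sulfonylurea receptors and trafficking proteins), 22 lay below 0, where 48.6% of all genes did, and 3 were lower at an unadjusted p under 0.05, where 3.67% of all genes were. These were Cntnap2, which clusters Kv1 channels beside the node of Ranvier (log2 fold change -0.19, p 0.0235), Abcc8, the sulfonylurea receptor that Kcnj11 binds (-0.22, p 0.0461), and Dlg4, the scaffold PSD-95 (-0.16, p 0.0472). None passed after adjustment, their adjusted p values being 0.528, 0.621 and 0.621 in edgeR.

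Over all tested coding genes, length moved with the direction of the differences, and among the members this was seen in coding length only. The 9 lower members had a median coding length of 1962 bases and the 3 higher members one of 1137 bases. For the 76 other coding members, without a call, it was 1500 bases. The median transcript lengths of these groups were 4058, 3701 and 3603.5 bases, so the higher members were not shorter than those without a call. The 3 higher members are all inward rectifiers. Over all tested coding genes the median coding length was 1359 bases, and it was 2274 bases among those lower and 1248 bases among those higher at an unadjusted p under 0.05. Their median transcript lengths were 2981, 4639 and 2384 bases. Across the 72 coding members with at least 1 CPM, the Spearman correlation of transcript length with log2 fold change was -0.16, and across 13247 genes it was -0.28. With coding length in its place, the values were -0.15 for the members and -0.17 for all these genes. These are correlations across genes that share the same 12 libraries, and the part of length in the members' values was not tested.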

How the data were processed

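Ribosome-bound RNA of 6 wild-type and 6 Fmr1-/y libraries was sequenced by the authors from stranded libraries of polyadenylated RNA. According to the submitters' processing notes, the tools were bcl2fastq 2.17, TopHat2 2.1.1, Bowtie2 2.2.8 and HTSeq 0.6.1p1 with the mm10 build. The authors deposited raw read counts for 24079 genes, without normalization. Genes with at least 15 reads in total were kept. Counts were scaled by TMM and compared with edgeR 4.0.16 (quasi-likelihood test, no block or covariate, R 4.3.3) with Benjamini-Hochberg adjustment over all genes and a threshold of 0.05. The edgeR and DESeq2 steps were tested on simulated data. The SE is the log2 fold change divided by the square root of F. Replicates are separate pools of mice.

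The members, gene lists and rules were chosen with earlier results of these data known. Named in the text are 4 chosen channels (Kcnq3, Kcnk2, Kcnd2 and Kcnma1), the 5 lower and 5 higher members with the smallest p, the 10 highest per length, members whose genotypes do not overlap, FMRP-linked members, members known from other cells, members of the Kv7 class and partners with an unadjusted p under 0.05. Kcnh5, Kcna4, Kcnj11 and Kcnb2 fall outside this rule and are named because all 12 calls are. Some genes that the rule covers are not reported here. Marker lists of CA2 and CA3 pyramidal cells, dentate granule cells, oligodendrocytes and microglia were also read. Coordinates are RefSeq's on GRCm38.p6 by Entrez identifier. Lengths and filter codons come from the longest RefSeq-matched GENCODE M21 transcript, found for 90 of 91 members. Alternatives were DESeq2 1.42.0, its size factors or no scaling in edgeR, limma 3.58.1 voom, filterByExpr, at least 1 read, the replicate number as a block, and each library left out.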

Additional observations from a re-analysis of the deposited data

Results flagged for a closer look

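The named members with their 2 groups of 6 libraries gave 54 groups, in which a single library was compared with the other 5 by Dixon's ratio (its gap to the nearest library over the whole range, critical value 0.625). In 5 groups the ratio was exceeded, and chance flags about 1 in 20 groups, which is 2.7 of 54. Kcnq3 was high in Fmr1-/y replicate 6 (ratio 0.643), at 11.5 CPM against 7.90 to 9.20 CPM in the other Fmr1-/y libraries. Kcnk2 was low in Fmr1-/y replicate 4 (ratio 0.750), at 42.3 CPM against 46.5 to 47.9 CPM.

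Kcns1, the silent subunit Kv9.1, was flagged in both genotypes. It was low in wild-type replicate 4 (ratio 0.674), at 9.02 CPM against 12.4 to 14 CPM, and high in Fmr1-/y replicate 5 (ratio 0.631), at 16.7 CPM against 13.4 to 14.6 CPM. Kcnab1, the Kv beta-1 subunit, was high in wild-type replicate 1 (ratio 0.737), at 254 CPM against 191 to 208 CPM.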

How the results depend on the processing

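With DESeq2, 2 members passed the adjusted threshold (Kcnq3 and Kcnk2), and 0 passed under every other alternative, each library left out included. The adjusted p ran from 0.0050 to 0.450 for Kcnq3 and from 0.0102 to 0.406 for Kcnk2, and their log2 fold changes with each library left out ran from -0.60 to -0.46 and from -0.35 to -0.28. At an unadjusted p under 0.05, 9 lower and 3 higher members became 14 and 5 with the replicate number as a block, and 8 and 5 without scaling (61.5% of calls lower, against 75%), while calls over all genes went from 1418 to 1496 and 1481. With each library left out, the lower members ran from 7 to 13 and the higher from 2 to 6. The higher count was 2 without Fmr1-/y replicate 1, 6 without Fmr1-/y replicate 5 and 5 without replicate 3 or 6 of either genotype. Calls over all genes, in either direction, also moved in these fits. They ran from 1064 without wild-type replicate 5 to 1696 without Fmr1-/y replicate 3. Kcnq3, Kcnk2, Kcnj6, Kcns3, Kcnj10, Kcnq5, Kcnh5, Kcnj13 and Kcna4 kept an unadjusted p under 0.05 in all alternatives, Kcnj16 in all but 1, and Kcnj11 and Kcnb2 in 4 and 5 of the 12 fits with a library left out. Kcnb2 also lost it with the block and without scaling. Lower members without overlap numbered 0 without scaling and 1 to 3 with a library left out (3 without wild-type replicate 6, 2 without wild-type replicate 2 or 4 or Fmr1-/y replicate 4 or 6), and higher ones 0 to 1 (1 without wild-type replicate 1 or 6). The share of all genes without overlap is not given for these settings. A smaller group separates more easily for any gene, so these counts do not set the members apart.

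Of 513 comparisons of 27 named members with an alternative, 499 kept the direction and the side of the adjusted threshold and 2 passed it (Kcnq3 and Kcnk2 in DESeq2). The sign turned in 12, over 6 members. Kcnq1 was at -0.48 with voom and -0.36 with the block. With a library left out, Kcnq1 ran from -0.24 to 0.46, Kcnma1 from -0.024 to 0.041, Kcnj9 from -0.039 to 0.083, Kcnip3 from -0.094 to 0.019, Kcnt1 from -0.025 to 0.20 and Kcnj8 from -0.070 to 0.21. The cause was not tested. Deviations of same-numbered libraries correlated from -0.081 to 0.090 over all genes, from -0.243 to 0.348 over genes with a mean log2 CPM over 1 and from -0.443 to 0.599 over 5, where pairs 1, 3 and 4 were at 0.382, 0.436 and 0.599. Since not every pair exceeded 0.1, the numbers were not taken to pair the libraries. Depth limits the 17 members under 1 CPM.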
